A study of Homo sapiens with 6 samples.

Results

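miR-202 is a microRNA whose hairpin precursor yields 2 mature products, hsa-miR-202-5p and hsa-miR-202-3p (miR-202-5p and miR-202-3p from here on), and both are described here in azacitidine-sensitive and azacitidine-resistant K562 cells. They were taken by name from a table of read counts for 2656 mature miRNAs, so the members are 2 of 2656, and both were found. They were chosen by their levels and arm ratio in these same 6 libraries, so those values are a description, no p-value is given for them, and nothing is supported by them.

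K562 is an established human leukaemia line with erythroid and myeloid features. Azacitidine is a cytidine analogue that is incorporated into nucleic acids and traps DNA methyltransferases. The sensitive group is the drug-sensitive form of the line, and the resistant group was derived from K562 cells by culture in rising azacitidine concentrations over several months. Small RNA was sequenced from 3 replicates of each group, which the labels call biological replicates. The labels do not say whether the drug was present at harvest, whether the resistant replicates came from separate selections, or what the ending NT of all 6 library names stands for. A lasting change, an effect of the drug and a change fixed by chance during culture therefore cannot be told apart.

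A miRNA hairpin is cut by Drosha and then by Dicer into a short duplex, and usually one strand, the guide, is kept by an Argonaute protein while the other is degraded. Bases 2 to 8 of the guide, the seed, do most of the work of finding target transcripts, so the arms of a hairpin can address different transcripts. In vertebrates miR-202 is known chiefly from the gonads, where it is expressed in the testis and ovary, and it is not among the miRNAs commonly used to define blood lineages.

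The hairpin MIR202 lies at chr10:133247511-133247620 on the minus strand (GRCh38). It is printed here so that the place and composition of the arms can be seen, with both arms in capitals, from RefSeq (GRCh38.p14), 5′ to 3′.
MIR202 hairpin: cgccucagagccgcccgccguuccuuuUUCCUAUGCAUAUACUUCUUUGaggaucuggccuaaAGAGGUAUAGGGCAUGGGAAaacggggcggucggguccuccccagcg
The hairpin has 110 bases and a GC content of 58.2%. In the structure of lowest energy computed with RNAfold (-58.3 kcal/mol), 18 bases of each arm pair with the other arm. miR-202-5p has 22 bases at a GC content of 31.8%, and miR-202-3p has 20 bases at a GC content of 50%. No other mature miRNA of the table with a RefSeq sequence (2366 compared) came within fewer than 5 mismatches of either arm over an ungapped overlap of at least 16 bases, so neither arm has a near-identical copy among those sequences.

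MIR202 overlaps the long non-coding host gene MIR202HG, which GENCODE release 29 places at chr10:133246478-133247891 on the same strand. In the transcript MIR202HG-201, exon 2 (chr10:133247554-133247701) holds all 22 bases of miR-202-5p but only 4 bases of miR-202-3p, and the other 16 lie in the following intron. In the transcript MIR202HG-202 both arms are intronic.

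The mature sequences are shown with the miRNAs that share bases 2 to 7 with each arm, seeds (bases 2 to 8) in capitals. Of the let-7 relatives only 4 are printed, to show where the seeds part.
miR-202-5p: uUCCUAUGcauauacuucuuug
miR-337-3p: cUCCUAUAugaugccuuucuuc
miR-202-3p: aGAGGUAUagggcaugggaa
let-7a-5p: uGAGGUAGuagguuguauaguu
let-7b-5p: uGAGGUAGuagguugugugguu
let-7d-5p: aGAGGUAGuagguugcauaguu
miR-4458: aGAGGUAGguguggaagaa
Counted from 1 at the 5′ end and with let-7a-5p as the reference, miR-202-3p differs within the first 8 bases by U1A and G8U, so the let-7 seed is shared up to base 7. With miR-337-3p as the reference, miR-202-5p differs there by C1U and A8G. miR-202-3p thus belongs to a wider group around let-7, the family that represses RAS, MYC and HMGA2 transcripts. Among the miRNAs of the table with a RefSeq sequence, miR-337-3p is the one other with bases 2 to 7 of miR-202-5p. It comes from the imprinted 14q32 cluster.

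Levels are given as CPM, counts per 1000000 counts of library size. Library totals ranged from 3291500 counts (resistant replicate 3) to 12563945 counts (sensitive replicate 1). Resistant replicate 3 stood apart. Across miRNAs, Pearson's r of its log2 CPM was 0.875 with resistant replicate 1 and 0.864 with resistant replicate 2, against 0.995 between the latter 2. Annotations that resemble fragments of other RNAs can be a sign of RNA quality, which the counts do not measure directly. They summed to 50377 CPM by library total in resistant replicate 3, against 10066 and 10375 in resistant replicates 1 and 2. In the sensitive libraries the sum was 10813 to 16957. The levels of resistant replicate 3 also moved with base composition, as described further on, and the sum was not separated from that trend. The levels, folds, arm ratios and list counts are therefore also given without it. The erythroid list (miR-144, miR-451a and miR-486, 5 miRNAs) summed to 5278 to 7071 CPM by library total in sensitive libraries and to 17064, 13487 and 50444 in resistant replicates 1 to 3. Most of this sum was miR-486-5p, and the list did not move as one. The edgeR log2 fold changes were 2.34 and 1.70 for miR-486-5p and miR-486-3p. They were -0.41, -0.0016 and -0.94 for miR-144-3p, miR-144-5p and miR-451a. Without resistant replicate 3 the 5 values were, in the same order, 1.05, 0.85, 0.09, 0.43 and -0.49. The myeloid list (miR-223, miR-142 and miR-155-5p, 5 miRNAs) summed to 11518 to 12880 in sensitive libraries and to 10454, 13499 and 1134 in resistant replicates 1 to 3. Of the 10 listed miRNAs of both lineages each had counts, and their part in the miR-202 values was not tested.

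miR-202-5p, the more frequent arm in all libraries but resistant replicate 3, was far more abundant in 2 of the 3 resistant libraries than in the sensitive ones. It had 133, 141 and 44 counts in sensitive replicates 1 to 3 and 1558, 2224 and 49 counts in resistant replicates 1 to 3. As CPM scaled by trimmed mean of M values (TMM) factors, the scale of all levels from here on unless stated, these were 11.1, 14.4 and 8.14 in sensitive and 159, 168 and 19.2 in resistant libraries. Resistant replicates 1 and 2 were thus at least 11.0 times the highest sensitive library, while resistant replicate 3 was close to the sensitive range. The exact 95% interval for counting error of resistant replicate 3 (14.2 to 25.4 CPM) overlapped that of sensitive replicate 2 (12.1 to 17.0 CPM). Scaled by library totals alone, these 2 libraries stood at 14.9 and 13.8 CPM. In RNA from whole cultures, more cells with a miRNA and more of it per cell cannot be told apart.

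In rank, miR-202-5p moved from place 401 to 476 among the detected miRNAs of the sensitive libraries to places 202 and 200 in resistant replicates 1 and 2, and was at place 380 in resistant replicate 3. The mean was 11.2 ± 3.13 CPM over the sensitive libraries (SD, n = 3) and 115 ± 83.2 CPM over the resistant ones (SD, n = 3). The edgeR log2 fold change over all miRNAs was 3.36 (SE 0.80), a 10.3-fold higher level in resistant cells. Without resistant replicate 3 it was 3.90 (SE 0.28), or 14.98-fold.

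miR-202-3p, the less frequent arm in all libraries but resistant replicate 3, was at the limit of detection in sensitive cells. It had 2, 0 and 0 counts in sensitive replicates 1 to 3, where a count of 0 allows up to 0.306 CPM in replicate 2 and 0.555 CPM in replicate 3 (a floor of 3 counts). In resistant replicates 1 to 3 it had 19, 30 and 61 counts, which were 1.93, 2.26 and 24.0 CPM. All 3 resistant libraries lay above the sensitive ones, and the place of resistant replicate 3 turned from lowest of the group for miR-202-5p to highest. Resistant replicate 3, with the lowest miR-202-5p of the group, held 10.6 times the miR-202-3p of the next library.

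With counts pooled over each group and scaled by the same factors, miR-202-3p was 58.4-fold higher in resistant cells (95% interval for counting error 15.8 to 488), from 110 counts against 2. Without resistant replicate 3 it was 28.9-fold higher (7.58 to 245), from 49 counts against 2. The width of both intervals comes from the 2 sensitive counts, and the means were 0.0555 ± 0.0961 CPM (SD, n = 3, sensitive) and 9.38 ± 12.6 CPM (SD, n = 3, resistant). No molecular identifiers are named in the labels, so all such intervals and floors cover counting error only.

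**Figure D1:**
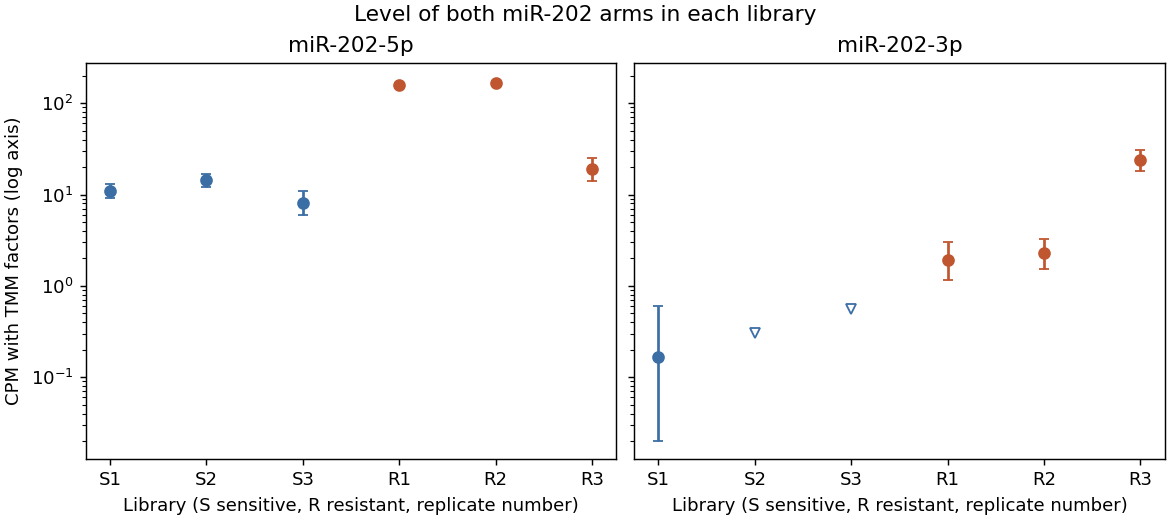
Level of each miR-202 arm by library in CPM on a log axis, with S for sensitive, R for resistant and exact 95% counting intervals as bars. Open triangles mark the floor of 3 counts in libraries with 0 counts. miR-202-5p is high in R1 and R2 (159 and 168 CPM) and near the sensitive libraries in R3 (19.2 CPM), while miR-202-3p is highest in R3 (24.0 CPM).

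Both arms had each resistant library above each sensitive one in CPM, which was so for 18.9% of the 768 miRNAs with enough counts to be tested. In the edgeR quasi-likelihood test over all miRNAs, 0 of the 2 arms were among the 32 calls at an adjusted p threshold of 0.05 (16 higher, or 2.08% of those tested, and 16 lower), while both had an unadjusted p below that value, as did 26.7% of those tested. With libraries scaled by their totals alone, 27 miRNAs were called higher and 16 lower. Both arms were among the calls without resistant replicate 3, where 13.7% of 822 miRNAs were called higher, and among those of DESeq2 with all libraries, where 12.8% of 768 were. These counts describe members that were chosen for their values in the same comparison, and nothing is read from them. miR-202-3p passed the filter on low counts through the resistant group alone.

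The arm ratio separated 1 library from the other 5, and not the groups. Of the counts of both arms, miR-202-5p made up 98.5% in sensitive replicate 1 (133 of 135, exact 95% interval 94.8% to 99.8%). It made up all 141 counts in sensitive replicate 2 (lower limit 97.4%) and all 44 in sensitive replicate 3 (lower limit 92.0%). The share was 98.8% in resistant replicate 1 (98.1% to 99.3%) and 98.7% in resistant replicate 2 (98.1% to 99.1%). In resistant replicate 3 it was 44.5% (49 of 110, 35.1% to 54.3%), so that miR-202-3p was the more frequent arm there.

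Pooled over the sensitive libraries the 5p share was 99.4% (97.8% to 99.9%), and over resistant replicates 1 and 2 it was 98.7% (98.3% to 99.1%). These intervals overlap, so a difference in arm use between the groups was not detectable at this depth without resistant replicate 3. Both arms come from 1 library each time, and the ratio does not depend on how libraries are scaled.

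**Figure D2:**
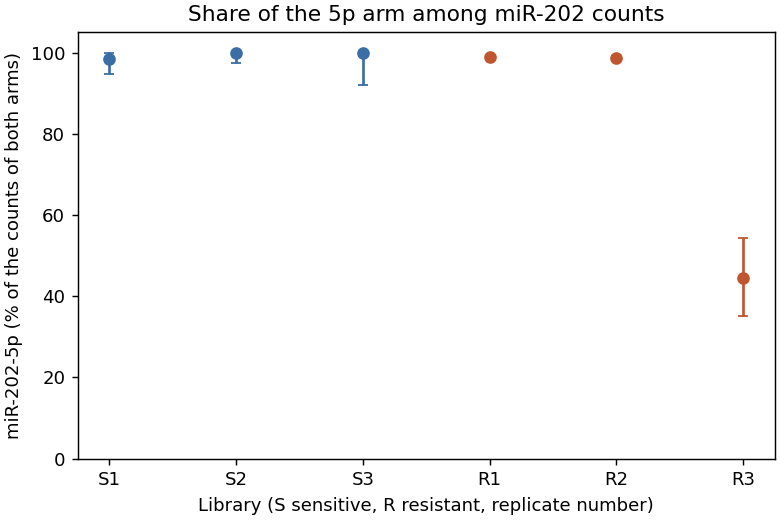
Share of miR-202-5p among the counts of both miR-202 arms by library, with exact 95% binomial intervals (S sensitive, R resistant). The share is at least 98.5% in 5 libraries and 44.5% in R3.

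On the log2 scale, with 0.5 counts added to each arm, the ratio of 5p over 3p was 5.74, 8.14 and 6.48 in sensitive replicates 1 to 3 and 6.32, 6.19 and -0.31 in resistant replicates 1 to 3. The sensitive values depend on the added 0.5, since 2 of them rest on a 3p count of 0. The mean ratio was 6.79 ± 1.23 over sensitive libraries and 4.07 ± 3.79 over resistant ones (SD, n = 3 each), a difference of -2.72 that fell to -0.53 without resistant replicate 3.

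Among 307 hairpins with both arms in the table and at least 10 counts summed over the libraries for each arm, 3 had a more negative difference between the groups than miR-202. These were miR-548g (-3.67), miR-3682 (-2.88) and miR-2467 (-2.87), and the next above were miR-135a (-2.52), miR-30b (-2.51) and miR-194 (-2.49). The median over all hairpins was 0.13. Without resistant replicate 3, 56 of the 307 were more negative than miR-202.

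Set against resistant replicates 1 and 2, the ratio of miR-202 in resistant replicate 3 differed by -6.57 on the log2 scale, and none of the other hairpins had a lower one. The middle range of the hairpins, from the lower to the upper quartile, was -1.20 to 1.19. In 23 of the 307 hairpins, miR-202 included, the more frequent arm in resistant replicate 3 was the opposite of that in the 5 other libraries. miR-135a, from hairpins on other chromosomes, was the hairpin with the next lowest value (-5.49). It had 51 counts of the 5p and 804 of the 3p arm in resistant replicate 3, against 947 and 186 summed over the sensitive libraries.

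The arms of miR-202 differ in base composition, by -18.2 percentage points of GC (5p minus 3p), and resistant replicate 3 differed from resistant replicates 1 and 2 along that axis. Across the 677 of 768 tested miRNAs with a RefSeq sequence, the deviation of resistant replicate 3 rose with GC content (Spearman's rho 0.709, given as a description, since miRNAs share the library and are not independent). miR-202-5p deviated by -3.07 (log2 CPM). Among the 123 other miRNAs within 5 percentage points of its GC content the median was -2.13 (quartiles -2.99 and -1.20), and 26 of them were lower. miR-202-5p lay within the range of these miRNAs, and the part of base composition in its level was not tested.

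miR-202-3p deviated by 3.50, while the median of the 241 others within 5 points of its GC content was -0.05 (quartiles -1.11 and 1.01), and 240 of the 241 were lower. This was a higher deviation than nearly every miRNA of like GC content showed. miR-202 was chosen by its levels and arm ratio in these libraries, so its places among others are a description. Their cause was not tested. For arm ratios, rho with the GC difference of the arms was 0.476 over 257 of the 307 hairpins. The 23 other hairpins within 5 points of the GC difference of miR-202 had a median deviation of -0.87 in resistant replicate 3. Their range was -4.65 to 1.70, and none was as low as miR-202. Between resistant replicates 1 and 2 and the sensitive libraries, rho of the arm ratio difference with the GC difference was 0.275.

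**Figure D3:**
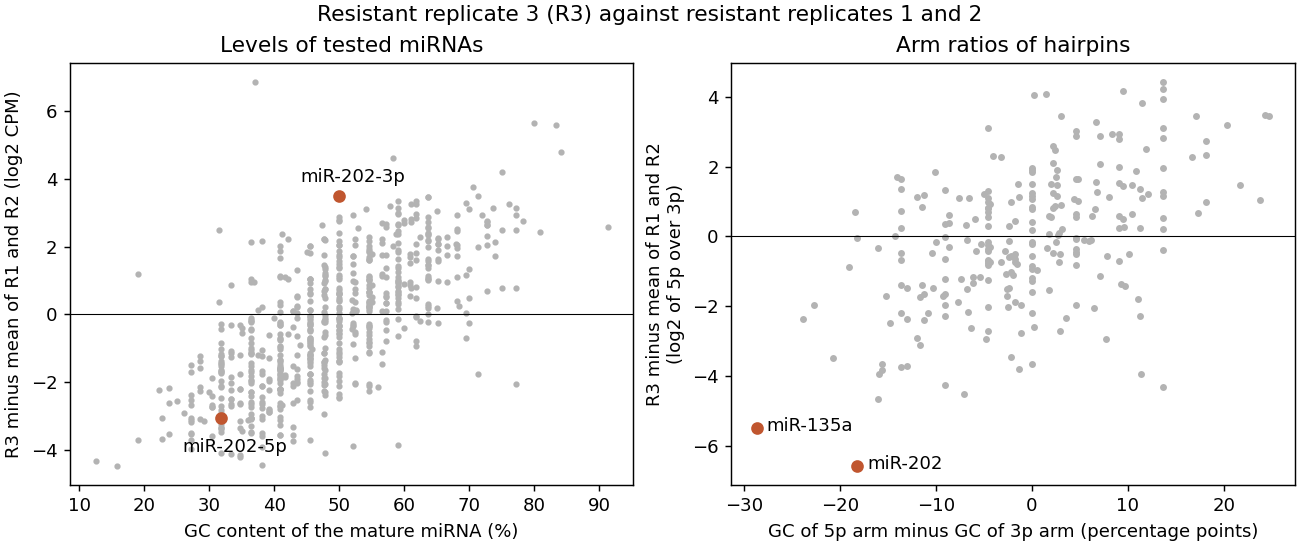
Resistant replicate 3 (R3) minus the mean of R1 and R2. Left, log2 CPM of tested miRNAs against their GC content, with miR-202-5p at -3.07 and miR-202-3p at 3.50. Right, log2 arm ratio of hairpins against the GC difference of the arms, with miR-202 at -6.57 below all other hairpins.

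When a smooth trend on GC content was removed from each library, miR-202-5p stood at 8.11, 8.58 and 5.96 CPM in sensitive and at 142, 137 and 80.7 CPM in resistant replicates 1 to 3. All resistant libraries then lay well above the sensitive ones, and the log2 fold change was 3.99 (SE 0.37), or 15.9-fold. miR-202-3p hardly moved under the same step, at 1.86, 2.23 and 24.9 CPM in resistant replicates 1 to 3. The log2 arm ratio in resistant replicate 3 became 1.70, against 6.21 and 5.92 in resistant replicates 1 and 2. The ratio there was then in favour of miR-202-5p again, at a lower value than in the other 5 libraries.

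Among miRNAs with a RefSeq sequence and the same bases 2 to 7, miR-202-5p went from a small to a large part. Of the counts of miR-202-5p and miR-337-3p together, it made up 1.75%, 1.78% and 1.42% in sensitive replicates 1 to 3. In resistant replicates 1 to 3 it made up 28.9% (27.7% to 30.1%), 30.1% (29.03% to 31.1%) and 36.8% (28.6% to 45.6%, exact 95% intervals). Resistant replicate 3 had the highest share, from 133 counts in all. There miR-202-5p was at 19.2 CPM, close to the sensitive range, and miR-337-3p was at 33.0 CPM, against 390 CPM in each of resistant replicates 1 and 2. The shares contain the counts by which miR-202-5p was chosen, so they are a description.

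miR-337-3p itself had 7468, 7791 and 3048 counts in sensitive and 3836, 5172 and 84 counts in resistant replicates 1 to 3. Its log2 fold change was -1.28 (SE 0.79, edgeR adjusted p = 0.313). Without resistant replicate 3 it fell by 0.70 on the log2 scale (edgeR adjusted p = 0.0324, the lowest over its 12 alternatives, of which the highest was 0.556).

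The share of miR-202-3p among miRNAs with a RefSeq sequence and GAGGUA at bases 2 to 7 stayed small throughout. It was 0.00451% in sensitive replicate 1 and 0 of 36255 and of 17225 counts in sensitive replicates 2 and 3, which allow up to 0.00827% and 0.0174%. It was 0.0195%, 0.0241% and 0.147% in resistant replicates 1 to 3. At its highest, in resistant replicate 3, miR-202-3p gave 61 of the 41457 counts with this sequence.

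**Figure D4:**
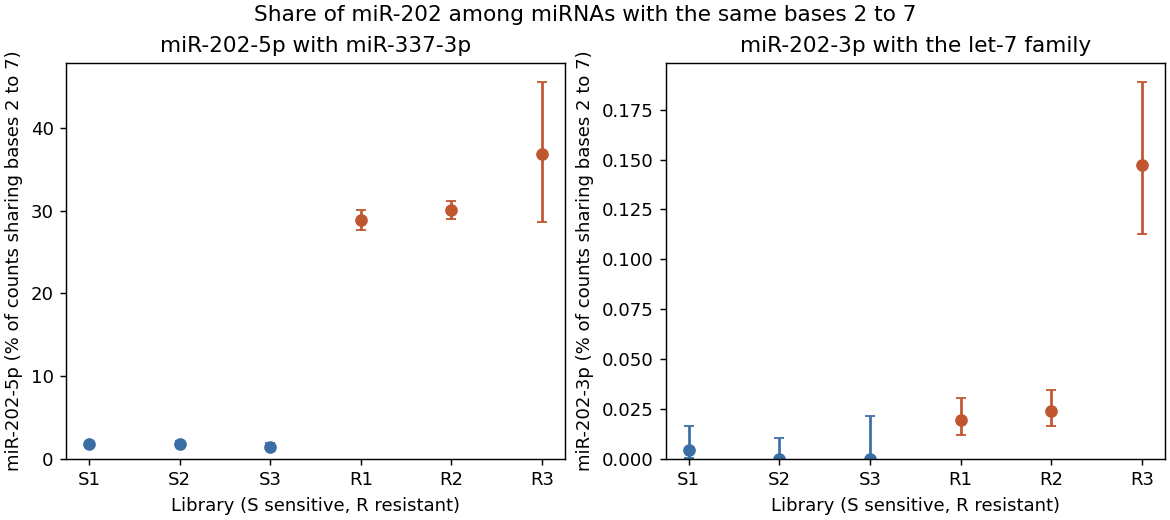
Left, miR-202-5p as a share of the counts of miR-202-5p and miR-337-3p. Right, miR-202-3p as a share of the counts of miRNAs with a RefSeq sequence and GAGGUA at bases 2 to 7. Bars are exact 95% binomial intervals (S sensitive, R resistant). The left share goes from at most 1.78% in sensitive to at least 28.9% in resistant libraries, and the right share is highest in R3 (0.147%).

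The other miRNAs with that sequence are the let-7 family with miR-98-5p, miR-4458 and miR-4500. They numbered 11 among the table names with a RefSeq sequence, of which 9 were tested. Of these 4 rose, 0 fell and 5 did not pass (edgeR adjusted p), with a median log2 fold change of 1.16 against -0.11 over all tested. Over all 768 tested, 16 rose and 16 fell. let-7a-5p, the most abundant, was at 1261 ± 112 CPM in the sensitive and 7256 ± 3026 CPM in the resistant libraries (SD, n = 3 each), a rise of 2.52 on the log2 scale (edgeR adjusted p = 0.0198, 4.17e-06 to 0.162 over 12 alternatives), or 2.18 without resistant replicate 3. let-7b-5p, with the lowest adjusted p, was at 7.88 ± 1.43 CPM and 178 ± 155 CPM there (log2 fold change 4.49, edgeR adjusted p = 0.0154, 1.67e-09 to 0.148 over 12 alternatives), 11.5-fold without resistant replicate 3. let-7f-5p and let-7g-5p, next in abundance, had log2 fold changes of 0.41 and 0.93 and did not pass. Without resistant replicate 3, 8 rose (median 1.30), where 113 of all 822 tested did. Without resistant replicate 2 or 1 it was 3 or 1. Without any one of the sensitive libraries edgeR called 0 of the 9, with 5 to 7 at an unadjusted p under 0.05. DESeq2 with all libraries called 7 higher, against 98 of all 768.

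No tested product of the hairpins near MIR202 passed the test. RefSeq places 5 other miRNA hairpins within 10 Mb, with 6 mature products in the table. Of these 3 were tested with all libraries and edgeR called 0, with 0 at an unadjusted p under 0.05. DESeq2 called 0, with 2 at an unadjusted p under 0.05. With resistant replicate 3 left out, edgeR tested 4 and called 0, again with 2 at an unadjusted p under 0.05. miR-378c, the most abundant, had log2 fold change -0.48 (SE 0.36). The nearest hairpin, MIR3944, lies 124045 bases away. Its products miR-3944-3p and miR-3944-5p had log2 fold changes of 1.44 and 1.74 with all libraries and 0.48 and -0.02 without resistant replicate 3. None of them passed in either fit.

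Of 40 listed miRNA products that, like miR-202, are known mainly from germ cells, gonads or ciliated and pluripotent cells, 30 had a count and 7 were tested. Of these 1 rose, 1 fell and 5 did not pass, with a median log2 fold change of -1.85 against -0.11 over all tested. Over all 768 tested, 16 rose and 16 fell. Without resistant replicate 3, 2 of 9 tested rose, 4 fell and 3 did not pass, with a median of -0.79 against 0.04 over all tested. Of all 822 tested in that fit, 113 rose and 118 fell. DESeq2 with all libraries called 1 of 7 higher and 3 lower, against 98 higher and 51 lower of all 768. miR-449c-5p, of a family linked to multiciliated cells and spermatogenesis, rose 4.59-fold, with 1.77 ± 0.128 CPM in sensitive libraries and 8.20 ± 0.347 CPM in resistant ones (SD, n = 3 each, edgeR adjusted p = 0.0255, 1.05e-05 to 0.206 over 12 alternatives). Its CPM was 7.84, 8.52 and 8.25 in resistant replicates 1 to 3, so resistant replicate 3 was not apart for this miRNA. miR-372-3p, of an embryonic stem cell cluster, had 53, 43 and 15 counts in sensitive and 4, 4 and 0 in resistant replicates 1 to 3 and fell by 3.65 on the log2 scale (edgeR adjusted p = 0.0198, 4.09e-05 to 0.162 over 12 alternatives). Among the fits that left out 1 library, both passed only where that was resistant replicate 3 (log2 fold changes 2.24 and -3.40). The other abundant members, miR-34c-5p and miR-514a-3p, had log2 fold changes of -0.36 and -1.85 and did not pass. The resistant mean of miR-202-5p (115 CPM) was above that of each listed miRNA, but miR-202-5p was chosen by its levels in these libraries. Its sensitive mean (11.2 CPM) was below that of miR-34c-5p (13.5 CPM).

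The miRNAs whose pattern over the 6 libraries was closest to each arm were ranked by the root mean square difference of log2 CPM after removing each miRNA's mean. For miR-202-5p these were miR-135a-5p (0.63), miR-3065-5p (0.77), miR-143-3p (0.81), miR-196a-5p (0.82) and miR-10399-5p (0.84), where the median over 766 miRNAs was 1.94. miR-135a-5p had 36.3, 37.7 and 26.3 CPM in sensitive and 238, 246 and 20.0 CPM in resistant replicates 1 to 3. It was thus high in the same 2 libraries as miR-202-5p.

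For miR-202-3p the closest were miR-675-5p (0.998), let-7b-5p (1.03), miR-675-3p (1.06), miR-135a-3p (1.15) and miR-193a-5p (1.25), where the median was 3.22. miR-675 is made from the long non-coding RNA H19, which the series concerns. miR-135a-3p had 5.66, 7.25 and 8.69 CPM in sensitive and 100, 70.8 and 316 CPM in resistant replicates 1 to 3, and was highest in resistant replicate 3 like miR-202-3p. The arms of miR-202 were less like each other (2.67) than either was like these miRNAs. The sensitive values of miR-202-3p rest on 2, 0 and 0 counts, so its distances depend on how a count of 0 is put on the log2 scale. Likeness over 6 libraries in 2 groups is a description of these libraries.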

How the data were processed

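Small RNA libraries (NEBNext kit, NovaSeq instrument, per the labels' protocols) of 3 sensitive and 3 resistant K562 replicates were compared. The authors deposited whole-number read counts per mature miRNA with no normalization found in them. The submitters' processing notes name GRCh38. For aligner, counter, miRBase release and reads with several matches, the method is not given in the sources used here. The members, lists and naming rule were chosen with earlier results of these data known, and no p-value of the members is reported.

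Counts were analysed with edgeR 4.0.16 (R 4.3.3): filterByExpr by group (minimum count 10, minimum total 15), TMM factors, quasi-likelihood F test without covariates, Benjamini-Hochberg adjustment over 768 tested miRNAs, threshold 0.05. Approximate SE values were obtained from each log2 fold change and its F statistic. On simulated counts 95% of 16-fold and 61% of 4-fold changes were recovered, with 5 false calls among 734 tested. The simulation drew each miRNA independently and held neither a trend on GC content nor an outlying library, so these rates need not hold here. DESeq2 1.42.0, other scalings, no filter, a replicate block, a loess correction on GC content (span 0.75) and leaving out each library were alternatives. Replicate pairs differed beyond sampling noise (chi-square per degree of freedom 124 to 4015). P-values cover the spread between these libraries. Sequences came from RefSeq (2367 of 2656 names matched), host exons from GENCODE 29, and the hairpin was folded with RNAfold 2.7.2. Named miRNAs were the members, the most abundant and lowest-p list members, called list members, the 5 closest patterns per arm and the hairpins of next arm ratio.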

Additional observations from a re-analysis of the deposited data

How the results depend on the processing

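The higher level of both arms in resistant cells held its direction under all 12 alternatives run for each. Both arms were chosen by these values and had each resistant library above each sensitive one in CPM. Leaving out 1 library could therefore hardly turn the direction, and nothing is supported by it. The log2 fold change of miR-202-5p ranged from 3.08 to 3.90 when 1 library was left out. For miR-202-3p, as pooled counts, it was 5.87 with all libraries and 4.44 to 6.46 with 1 left out. The lowest of these, without sensitive replicate 1, is a lower bound from the floor of 3 counts. The arm ratio difference of -2.72 was -1.99 with 1 count added in place of 0.5, -1.65 with the GC correction and -3.85 to -0.53 with 1 library left out. The share of hairpins with a more negative arm ratio difference than miR-202 was 0.977%, 0% with at least 50 counts per arm, and 18.2% without resistant replicate 3. The 32 calls over all miRNAs became 21 with RLE factors, 162 with no filter, 149 with DESeq2, 71 with the GC correction and 4 to 231 with 1 library left out (5, 4 and 5 without sensitive replicates 1 to 3, and 7, 26 and 231 without resistant replicates 1 to 3). The 4 miRNAs called higher among those sharing bases 2 to 7 with miR-202-3p became 2 with RLE factors, 7 with DESeq2, 8 with the GC correction and 0 to 8 with 1 library left out. The median log2 fold change over all tested miRNAs was -0.11 with TMM factors, -0.01 with RLE factors and 0.09 with library totals. The causes were not tested.

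Same-numbered libraries deviated from their group means with correlations of -0.06, 0.26 and 0.13, and not every library correlated best with its own number, so the numbers were not taken as pairs. With the replicate block, 23 miRNAs were called (8 higher and 15 lower) and 1 of those sharing bases 2 to 7 with miR-202-3p was higher. The fitted log2 fold change of miR-202-5p was 2.94 with the block against 3.36 without it. That of miR-202-3p was 5.89 against 6.71, with 7.36 by DESeq2, and such fitted values depend on the prior count where a group has 2 counts. The mean of the same-number differences in arm ratio was -2.72, which equals the difference of the group means by construction and is no check on pairing. Depth limits the arm ratio in sensitive cells, where miR-202-3p had 2 counts in all.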
